A study of Mus musculus with 10 samples.

Results

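Bone morphogenetic protein (BMP) signalling was followed in mouse aorta through 10 genes: the inhibitory Smads Smad6 and Smad7, the receptor-activated Smads Smad1 and Smad5, the ligands Bmp2 and Bmp4, the receptors Bmpr1a, Bmpr2 and Acvrl1, and the co-receptor Eng. Every probe set to which the platform's annotation gives one of these symbols was taken, which came to 24 of the 45037 probe sets that are not controls. Smad6 was singled out because it fell in the comparison described here, so its difference between the groups is a description: no p is given for it, and its place among the calls counted further on is not evidence. The other 9 genes were taken for their place in the pathway, with earlier results of these data known.

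The samples were aortas of male mice, 5 arrays of wild type (replicates F11, F14_2, F15, F16 and F17, strain C57Bl/6 per the labels) and 5 of NPAS2 mutant mice (replicates F12, F13, F18, F19 and F20, on a C57Bl/6J background). Both groups had at least 2 weeks of 12 h light and 12 h dark, then at least 30 h of constant darkness, and were killed at zeitgeber time 14 h. Npas2 is a clock transcription factor that pairs with Bmal1. The labels state no age, no description of the mutation, and not whether arrays held separate animals, so p-values speak of the spread among arrays, which may be technical. Each array gave a log2 expression level per probe set, between 1.10 and 14.74 over the table, with array medians between 3.14 and 3.20. All 8 smooth muscle markers and 14 of 16 endothelial markers were above the array median on all 10 arrays, the others being Kdr on 8 arrays and Robo4 on 1. The brighter Npas2 probe set, 1421037_at, was near the lower end of the range, with group means of 3.71 ± 0.24 and 3.43 ± 0.03 (SD, n = 5 each, wild type first) and a difference of -0.28 (limma adjusted p = 0.249). The part of the transcript it reads is not known here, so it does not check the genotype.

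BMP ligands bind pairs of type I and type II receptor kinases on the cell surface, and the type I receptor phosphorylates Smad1 and Smad5, which enter the nucleus with Smad4 and switch on target genes. Smad6 and Smad7 are themselves targets of the pathway and act as its brakes: they bind the receptors and the receptor-activated Smads and limit signalling. In the vessel wall the endothelial receptor Acvrl1 (also called ALK1), its co-receptor Eng (endoglin) and the type II receptor Bmpr2 are known from inherited vascular disease.

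The start of the Smad6 gene is shown because it carries the letters of a Smad binding palindrome, and that of Bmp4 because it carries an E-box, the sequence bound by Clock or Npas2 with Bmal1. Both are from RefSeq on assembly GRCm38.p6, 5′ to 3′ along the gene's own strand, with the motif in capitals.
Smad6 (chr9:64022056-64022309, minus strand, 250 bases before the start and 4 after): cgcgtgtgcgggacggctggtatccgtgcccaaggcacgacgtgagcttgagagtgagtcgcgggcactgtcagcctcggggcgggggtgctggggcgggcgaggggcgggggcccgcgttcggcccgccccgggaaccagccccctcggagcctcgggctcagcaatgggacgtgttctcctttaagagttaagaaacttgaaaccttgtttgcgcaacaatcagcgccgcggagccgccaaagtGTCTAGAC
Bmp4 (chr14:46390670-46390919, minus strand, 250 bases before the start): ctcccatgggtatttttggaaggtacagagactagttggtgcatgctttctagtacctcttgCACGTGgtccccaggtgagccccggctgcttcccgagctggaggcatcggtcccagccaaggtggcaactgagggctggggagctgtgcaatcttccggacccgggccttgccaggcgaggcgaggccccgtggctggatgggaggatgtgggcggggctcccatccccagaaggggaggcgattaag
The motifs were sought in windows of 300 bases, 250 before and 50 after each start, which were used for 7 of the 10 genes in 9 windows. No window of Smad7, Bmp2 or Acvrl1 was searched. Whether Smad7, the other inhibitory Smad, carries any of the motifs is therefore not known here, and no match is shown to be particular to Smad6. All 3 motifs read the same on both strands, and no member window held more than 1 kind. The palindrome GTCTAGAC began 4 bases before the Smad6 start and was in none of the other windows searched for members, while 0.213% of all 32851 windows held it. The E-box CACGTG lay, among the members searched, in the Bmp4 window alone, beginning 188 bases before the start, and 7.15% of all windows held it. The GC-rich element GGCGCC of BMP-responsive promoters lay in windows of Bmpr1a, Bmpr2 and Smad5 and in 11.9% of all windows. A match is a run of letters, and binding was not measured.

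Smad6 was lower on every mutant array than on any wild-type array. Its single probe set, 1422771_at, read 7.56, 7.16, 7.47, 7.46 and 7.28 on wild-type arrays F11, F14_2, F15, F16 and F17. It read 6.81, 6.77, 6.38, 6.63 and 6.58 on mutant arrays F12, F13, F18, F19 and F20. The groups were 7.38 ± 0.16 and 6.63 ± 0.17 (SD, n = 5 each), a log2 difference of -0.75 ± 0.10 (SE), or 1.68-fold lower in the mutant. Of the 22340 probe sets bright enough to test, 33 had a deeper fall. Smad6 has no further probe set in the table, so its level rests on this reading alone.

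**Figure D1:**
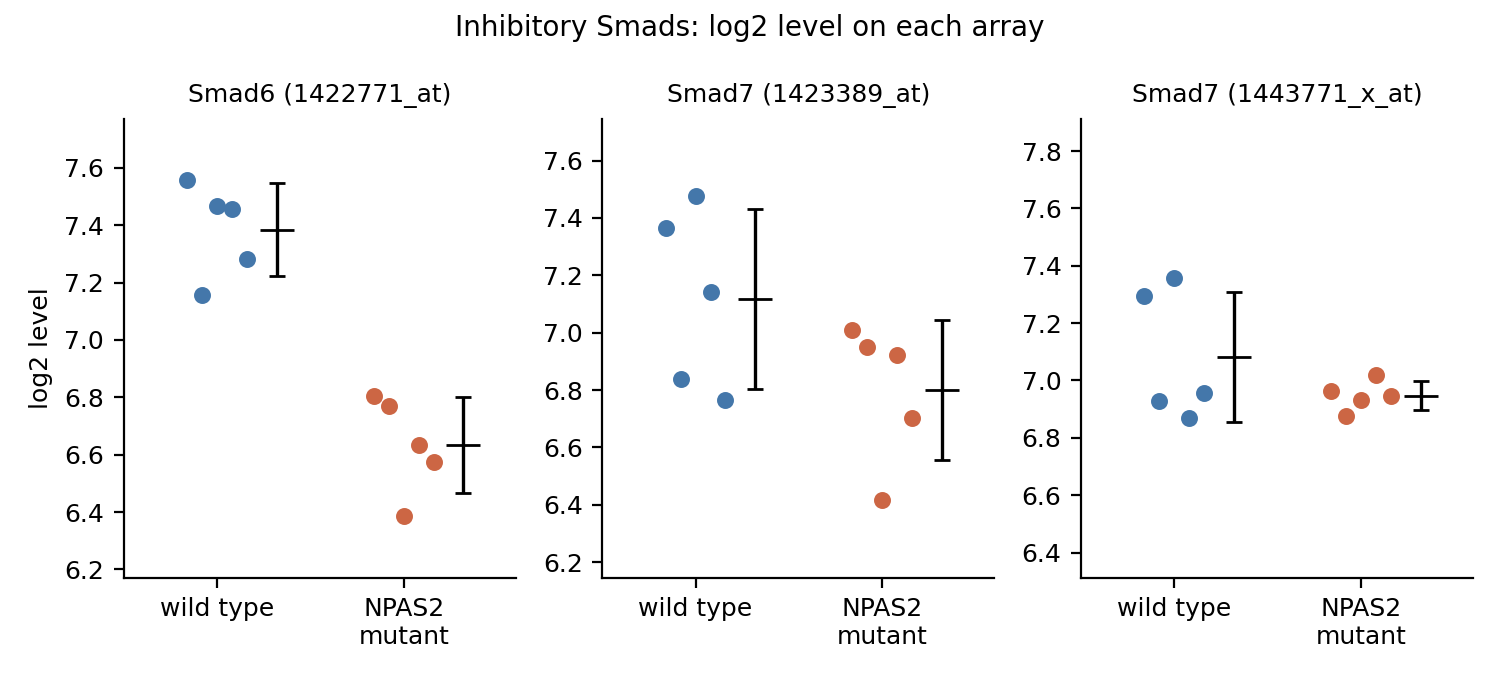
Log2 levels of the inhibitory Smads on each array (points, in replicate order within a group) with the group mean and SD (bars beside the points), over the same height of scale in each panel. The Smad6 groups do not overlap, at 7.16 or above in wild type and 6.81 or below in the mutant, while both Smad7 probe sets overlap.

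Smad7, the other inhibitory Smad, did not separate the groups. Probe set 1423389_at read 7.36, 6.84, 7.48, 7.14 and 6.77 in wild type and 7.01, 6.95, 6.42, 6.92 and 6.70 in the mutant, in the same array order. Only mutant arrays F18 and F20 were below all wild-type arrays. Its difference was -0.32 (95% interval -0.67 to 0.03), with a limma adjusted p of 0.364 over all 22340 probe sets. The slightly brighter 1443771_x_at, whose suffix marks probes shared with other transcripts, read 7.30, 6.93, 7.36, 6.87 and 6.96 against 6.96, 6.88, 6.93, 7.02 and 6.95. Every mutant array lay inside the wild-type range, which the high arrays F11 and F15 set. The difference was -0.13 (95% interval -0.35 to 0.09, limma adjusted p = 0.525). Set against Smad7 on this probe set within each array, Smad6 was higher by 0.11 to 0.59 in wild type and lower in the mutant, at -0.55 to -0.11. On 1423389_at Smad6 was not higher on wild type F15, at 7.47 beside 7.48 for Smad7. Both contrasts reuse the Smad6 readings for which Smad6 was singled out, so they are descriptions. They are differences of probe set readings and give no ratio of transcripts.

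Within the groups Smad6 and the Smad7 probe set 1423389_at were high and low on the same arrays, a measure that the choice of Smad6 did not use. With each group's mean subtracted, Smad6 and Smad7 1423389_at had a Pearson correlation of 0.89 and a Spearman correlation of 0.90 over the 10 arrays. Exact permutation within groups gave p = 0.00236 and 0.00167, or 0.0472 and 0.0333 after Benjamini-Hochberg adjustment over the 20 member probe sets set against Smad6. Without the 2 arrays farthest from the median of Smad6 the Pearson value was 0.81, and with the brown fat marker mean (described further on) taken out it was 0.78. Smad7 1443771_x_at, the brighter probe set of the gene, had only 0.41 (exact permutation p = 0.283, adjusted 0.798). The relation therefore rests on 1423389_at alone. None of the other 18 passed, with adjusted exact permutation p between 0.637 and 0.967. The share of all tested probe sets that would pass the same test is not given here. Smad6 and Smad7 1423389_at were read from the same RNA and arrays, and whether array quality has a part in their shared variation was not tested.

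The genes most like Smad6 in this within-group pattern were sought over all tested probe sets with a gene name. They were Mrpl58 (Pearson 0.95), Irf2bpl (0.93), Gatb (0.93), Neo1 (0.93, probe set 1444295_at) and Gipc1 (0.92) over the 10 arrays. Their Spearman values lay between 0.76 and 0.94, and Pearson values without the 2 farthest arrays between 0.79 and 0.88. They were picked as the highest of all, so no p is given. Between the groups they went different ways: Gatb had a difference of 0.41 and Mrpl58 one of 0.18, while Neo1, a receptor of repulsive guidance molecules, had one of -0.76.

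Smad1 and Smad5, the receptor-activated Smads that carry the BMP signal to the nucleus, had lower means in the mutant on all 6 of their probe sets, and none passed the test. For Smad1 the brightest probe set, 1459843_s_at, read 8.43, 8.20, 8.45, 8.30 and 8.44 in wild type and 8.15, 8.03, 8.23, 8.40 and 8.28 in the mutant. The groups overlapped, with a difference of -0.15 (95% interval -0.32 to 0.03, limma adjusted p = 0.391). Its probe set 1448208_at came nearest to separation, at 6.86, 6.98, 7.08, 7.15 and 6.81 in wild type and 6.54, 6.64, 6.81, 6.61 and 6.82 in the mutant. Mutant F20 alone lay above the lowest wild-type array. That difference was -0.29 ± 0.08 (SE, limma adjusted p = 0.166), and the third probe set, 1416081_at, had one of -0.21 (limma adjusted p = 0.339). Smad5 on 1433641_at read 6.14, 6.13, 5.90, 6.21 and 5.77 against 5.75, 5.81, 5.89, 5.94 and 5.82, a difference of -0.19 (95% interval -0.38 to 0.01, limma adjusted p = 0.337). The wild-type arrays were spread and the mutant arrays lay within or, for F12, just below their range. Its dimmer probe sets had differences of -0.08 each, with limma adjusted p values of 0.574 (1421047_at) and 0.649 (1451873_a_at).

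The ligands had differences of opposite sign, and neither passed the test. Bmp4, a ligand of vascular endothelium and mesenchyme, read 7.56, 7.58, 7.58, 7.73 and 7.59 in wild type. In the mutant it read 6.80, 7.67, 7.06, 7.28 and 6.74. Wild-type arrays lay close together and 4 of 5 mutant arrays were below them, while mutant F13 was within the wild-type range. The means were 7.61 ± 0.07 and 7.11 ± 0.38 (SD, n = 5 each), a difference of -0.50 ± 0.16 (SE, 95% interval -0.84 to -0.15). Its limma adjusted p was 0.184. With each array left out in turn the difference ran from -0.64 (without mutant F13, limma adjusted p = 0.0803) to -0.40 (without mutant F20, limma adjusted p = 0.342), and 0 of the 10 fits passed. Bmp2, the other ligand, read 4.32, 4.06, 4.07, 4.47 and 4.46 against 4.35, 4.13, 4.91, 4.60 and 4.39. It had a difference of 0.20 (95% interval -0.12 to 0.52, limma adjusted p = 0.509), with mutant F18 and F19 above all wild-type arrays.

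None of the receptor probe sets passed the test. Bmpr1a, a type I receptor, read 9.17, 9.10, 9.13, 9.20 and 9.27 in wild type and 8.84, 9.01, 9.14, 9.18 and 9.11 in the mutant on its brightest probe set, 1425492_at. Mutant F12 and F13 were below all wild-type arrays, and the difference was -0.12 (95% interval -0.28 to 0.04, limma adjusted p = 0.439). Its other 3 tested probe sets had differences between -0.0031 and 0.08. Bmpr2, the type II receptor, read 9.92, 10.16, 10.09, 10.17 and 10.19 against 9.86, 9.96, 10.07, 10.09 and 9.79 on 1434310_at. The difference was -0.15 (95% interval -0.33 to 0.02, limma adjusted p = 0.376), and -0.25 on the dimmer 1419616_at (limma adjusted p = 0.509). Bmpr2 lies on the same chromosome as Npas2, and whether that has a part in its readings was not tested.

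Acvrl1 and Eng, which mark endothelium and transmit the signal of circulating BMPs, had differences of 0.10 or less in size on all 4 of their probe sets. Acvrl1 on 1451604_a_at read 6.58, 6.71, 6.54, 6.78 and 6.49 against 6.51, 6.62, 6.63, 6.36 and 6.50, a difference of -0.10 (95% interval -0.26 to 0.07, limma adjusted p = 0.542). Eng on 1417271_a_at read 7.01, 6.97, 6.68, 7.07 and 6.89 against 6.93, 6.80, 6.83, 7.18 and 6.94, a difference of 0.01 (95% interval -0.19 to 0.22, limma adjusted p = 0.956). On both genes the arrays of the groups were interleaved. The second probe set of each had a difference of -0.05 (Acvrl1) and 0.03 (Eng).

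**Figure D2:**
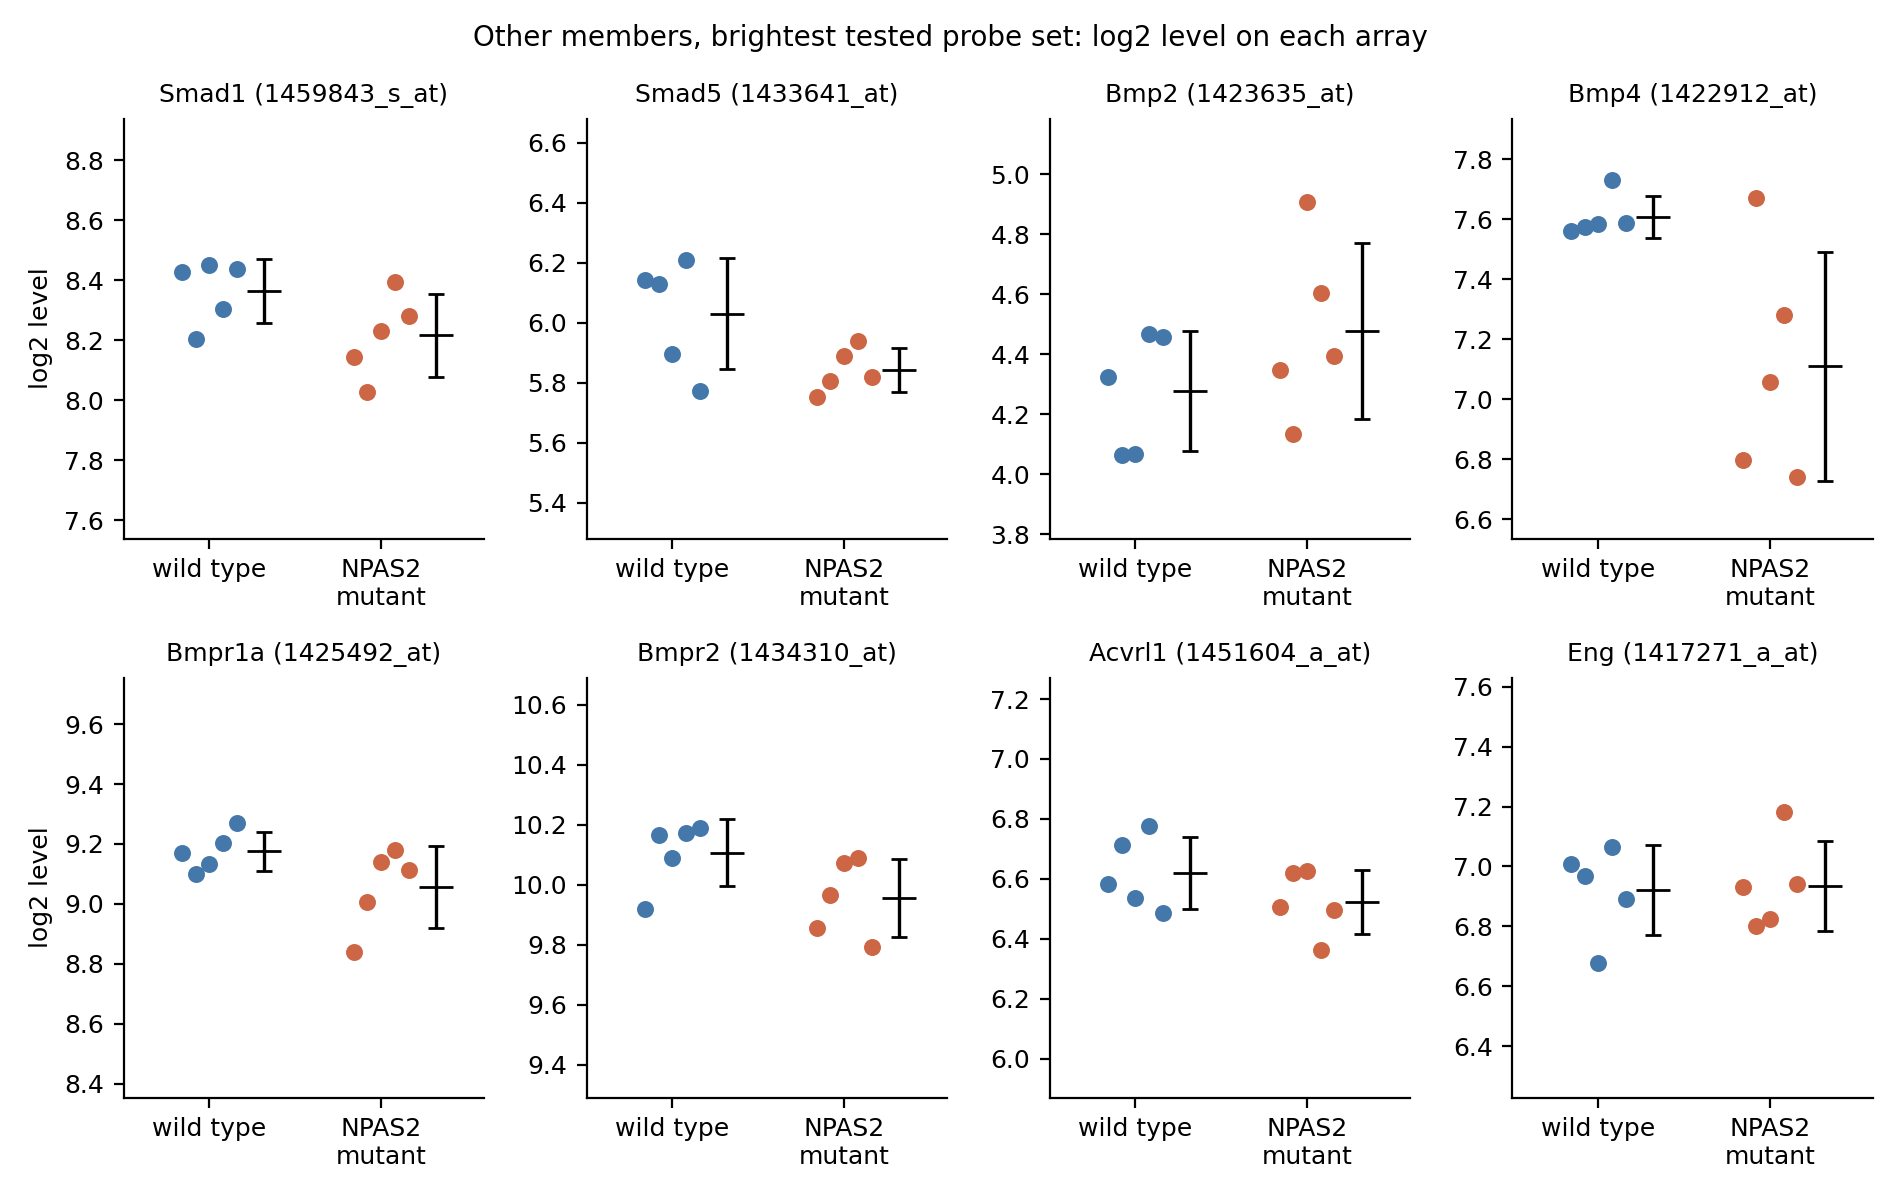
Log2 levels on each array (points, in replicate order) of the brightest tested probe set of the 8 members that are not inhibitory Smads, with group mean and SD (bars beside the points) over the same height of scale. All 8 overlap between the groups. For Bmp4 4 mutant arrays lie below wild type and F13, at 7.67, does not.

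Of the 24 member probe sets 21 were tested, each above its own array's median on all 10 arrays, so none entered through 1 group alone. Bmpr1a 1451729_at and 1445413_at and Bmpr2 1441652_at, the other 3, were too dim. Bmpr1a 1451729_at stood at 3.02 to 3.09 in wild type and at 3.01 to 3.49 in the mutant, where mutant F18, F19 and F20 were highest. Smad6 was the 1 member probe set that passed a limma adjusted p of 0.05, against 0.215% of all tested probe sets, of which 0.121% were lower and 0.094% higher in the mutant. Nothing is read from that count, since the same contrast chose Smad6. It was 0 when wild type F15 or F16 or mutant F19 or F20 was left out, with Smad6 differences of -0.73, -0.73, -0.75 and -0.74. The members next in order were Smad1 on 1448208_at (-0.29, limma adjusted p = 0.166) and Bmp4 (-0.50, limma adjusted p = 0.184), neither close to the threshold.

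Of the 20 tested probe sets of the other members 0 passed the limma test, 2 had an unadjusted limma p under 0.05 (Bmp4 and Smad1 1448208_at), and 0 had groups that did not overlap. Over all tested probe sets 15.3% had such a p and 4.01% such separation (2.5% lower and 1.5% higher). With a mean lower in the mutant there were 15 of the 20, where 57.6% of all were lower. After quantile normalisation there were 13 of the 20 beside 50.5% of all, and after median centring 13 of the 20 beside 42.7%. Their median difference was -0.11, beside -0.03 over all tested probe sets. Probe sets of the same gene are repeat readings of it. Counted by gene, each at its brightest tested probe set, 7 of the 9 other members had a lower mean, where 55.9% of all genes did.

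**Figure D3:**
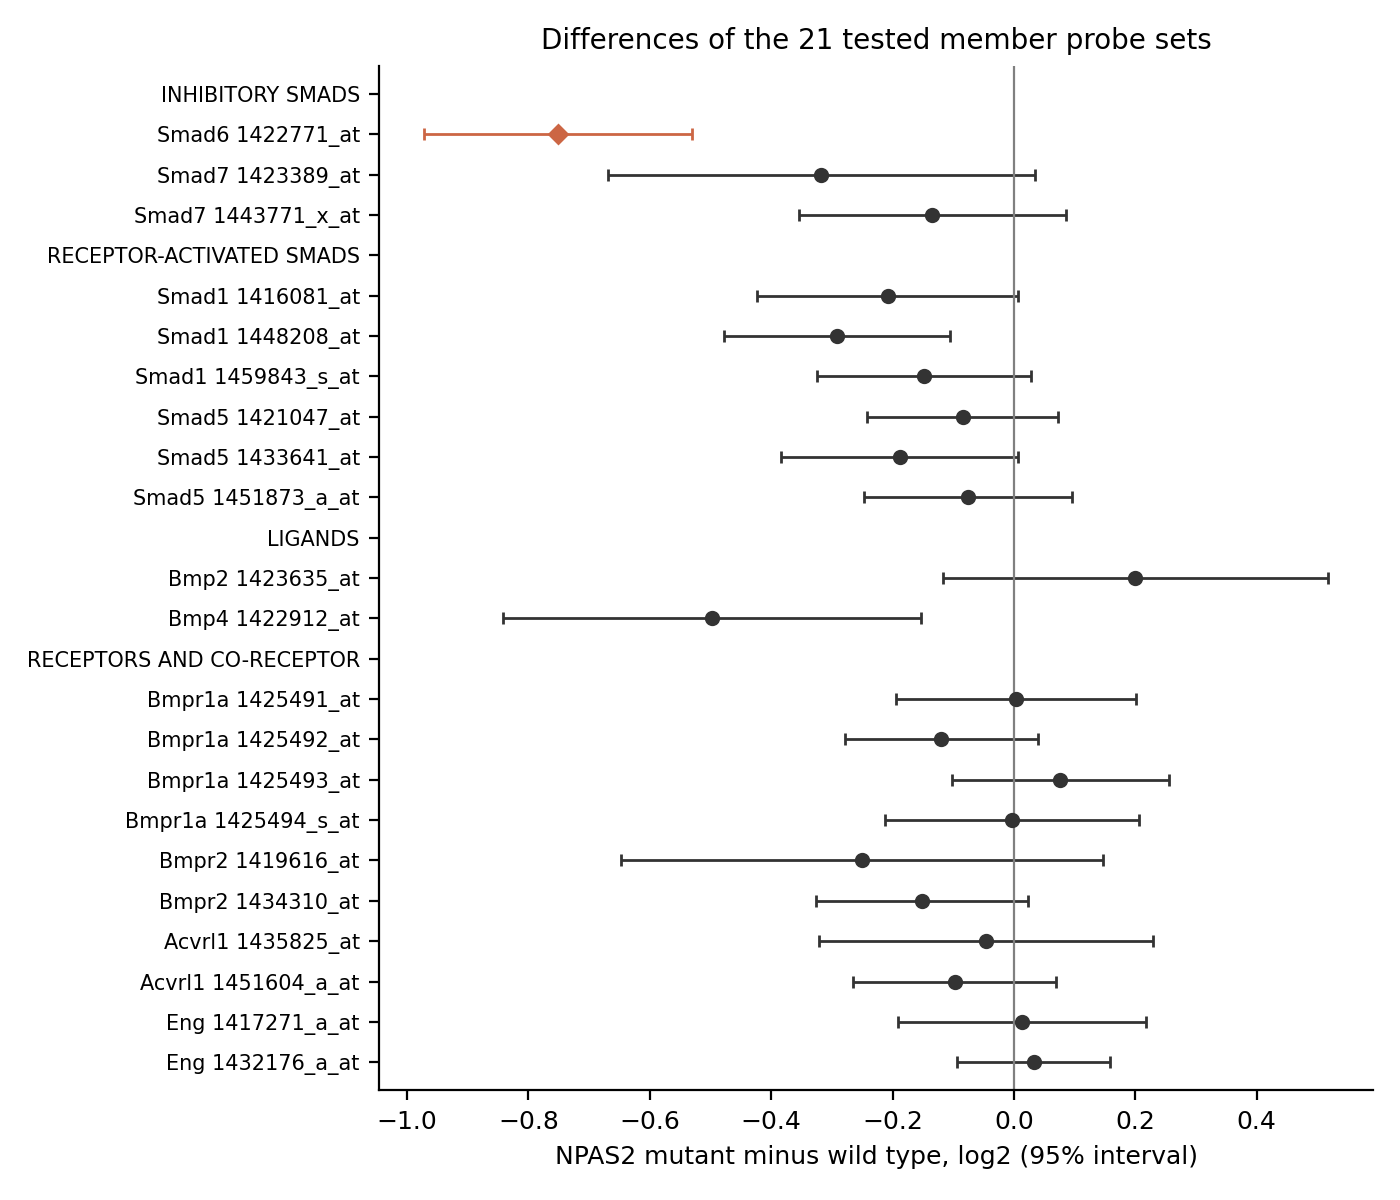
Mutant minus wild type on the log2 scale (points) with 95% intervals from limma (lines) for the 21 tested member probe sets, ordered by role. The diamond marks groups that do not overlap, which holds for Smad6 alone at -0.75. The other points lie between -0.50 (Bmp4) and 0.20 (Bmp2).

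The wider pathway was read through 59 more genes, each by its brightest tested probe set, of which 42 were bright enough. Of the 42, 1 passed the limma test, Id4, where 0.183% of all 10945 tested genes did. A lower mean in the mutant was found for 30 of them (55.9% of all genes), which was 29 after quantile normalisation and 26 after median centring, where 50.5% and 42.7% of all probe sets were lower. Groups did not overlap for 4 (4.21% of all genes), and 10 had an unadjusted limma p under 0.05 (15% of all genes). The list was drawn up with earlier results known, so these shares are descriptions.

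Genes that BMP signalling is known to switch on held 3 of those 4 separations. Of 8 tested targets 1 fell and 0 rose by the limma test, and the median difference was -0.26. Id4, an inhibitor of helix-loop-helix transcription factors, read 8.20, 8.35, 8.59, 8.31 and 8.43 in wild type and 7.67, 7.69, 7.70, 7.52 and 7.67 in the mutant. The groups lay well apart, and Id4 fell by 0.73 (SE 0.08, limma adjusted p = 0.00721). Its other probe sets fell as well, by 0.61 on 1423260_at (limma adjusted p = 0.0387) and by 0.56 on 1450928_at (limma adjusted p = 0.0101). Hey1, a transcriptional repressor of the vessel wall that answers to BMP and Notch, read 4.42, 4.14, 4.49, 4.32 and 4.44 against 3.99, 3.98, 3.85, 4.02 and 3.99. Its groups did not overlap either, with a difference of -0.40 ± 0.07 (SE, limma adjusted p = 0.0672). With each array left out in turn it ran from -0.45 to -0.37 and passed in 1 of 10 fits, the one without wild type F14_2 (limma adjusted p = 0.0300). Over all alternatives its limma adjusted p ran from 0.0300 to 0.628.

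Tmem100, an endothelial target of Acvrl1 signalling, had a difference of the opposite sign. It read 5.80, 5.78, 5.92, 6.15 and 6.05 in wild type and 6.47, 6.23, 6.59, 6.19 and 6.57 in the mutant, every mutant array above every wild-type array. The difference was 0.47 ± 0.10 (SE), with a limma adjusted p of 0.102. Id2, an early BMP target, and Id1 and Id3, its relatives, were added here after their values were seen. The whole target list, Id4 included, was drawn up with earlier results of these data known. Id2, Id1 and Id3 had differences of -0.30, -0.15 and -0.24 in that order, with limma adjusted p values of 0.237, 0.586 and 0.363. A further Id2 probe set, 1422537_a_at, had groups that did not overlap and a difference of -0.40 (limma adjusted p = 0.147). Atoh8, another helix-loop-helix target, had one of -0.27 (limma adjusted p = 0.307).

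Among other ligands and receptors none passed. Bmp6 read 7.08, 7.08, 7.06, 7.27 and 7.33 in wild type and 6.46, 7.17, 6.54, 6.83 and 6.50 in the mutant, with mutant F13 again the 1 array within the wild-type range, as for Bmp4. Its difference was -0.46 ± 0.13 (SE, limma adjusted p = 0.163). Bmpr1b, a further type I receptor, read 6.03, 6.03, 6.27, 6.55 and 5.92 against 5.86, 5.50, 5.78, 5.84 and 5.25 on 1437312_at, without overlap. The difference there was -0.51 ± 0.15 (SE, limma adjusted p = 0.166), but -0.24 on 1443720_s_at and 0.03 on 1422872_at. The co-receptor gene Tgfbr3 had one of -0.17 (limma adjusted p = 0.282), but -0.03 on the dimmer 1425620_at. The ligand gene Gdf5, near the lower end of the range, had one of 0.25 (limma adjusted p = 0.654).

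No inhibitor outside the Smad family and no nuclear partner passed the test. Of 9 intracellular inhibitors 0 passed limma and 0 had an unadjusted p under 0.05, with differences from -0.28 (Bambi, a decoy receptor) to 0.14 (Tob1). Of 10 tested extracellular antagonists and modulators 0 passed. Crim1, a membrane protein that tethers BMPs, had a difference of -0.24 (limma adjusted p = 0.192), and Fst, the ligand trap follistatin, one of 0.42 (limma adjusted p = 0.372). Their dimmer probe sets had smaller ones, at -0.13 (Crim1 1452253_at) and 0.19 (Fst 1421365_at). Of 5 tested Smad partners 0 passed. The coactivator gene Crebbp had a difference of -0.19 (limma adjusted p = 0.282) and Atf2, a transcription factor, one of -0.10. Further tested probe sets varied, at -0.32 (1436983_at, limma adjusted p = 0.205) and 0.10 (1434633_at) for Crebbp. Those of Atf2 ran from -0.17 (1427559_a_at) to 0.0006 (1437777_at).

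**Figure D4:**
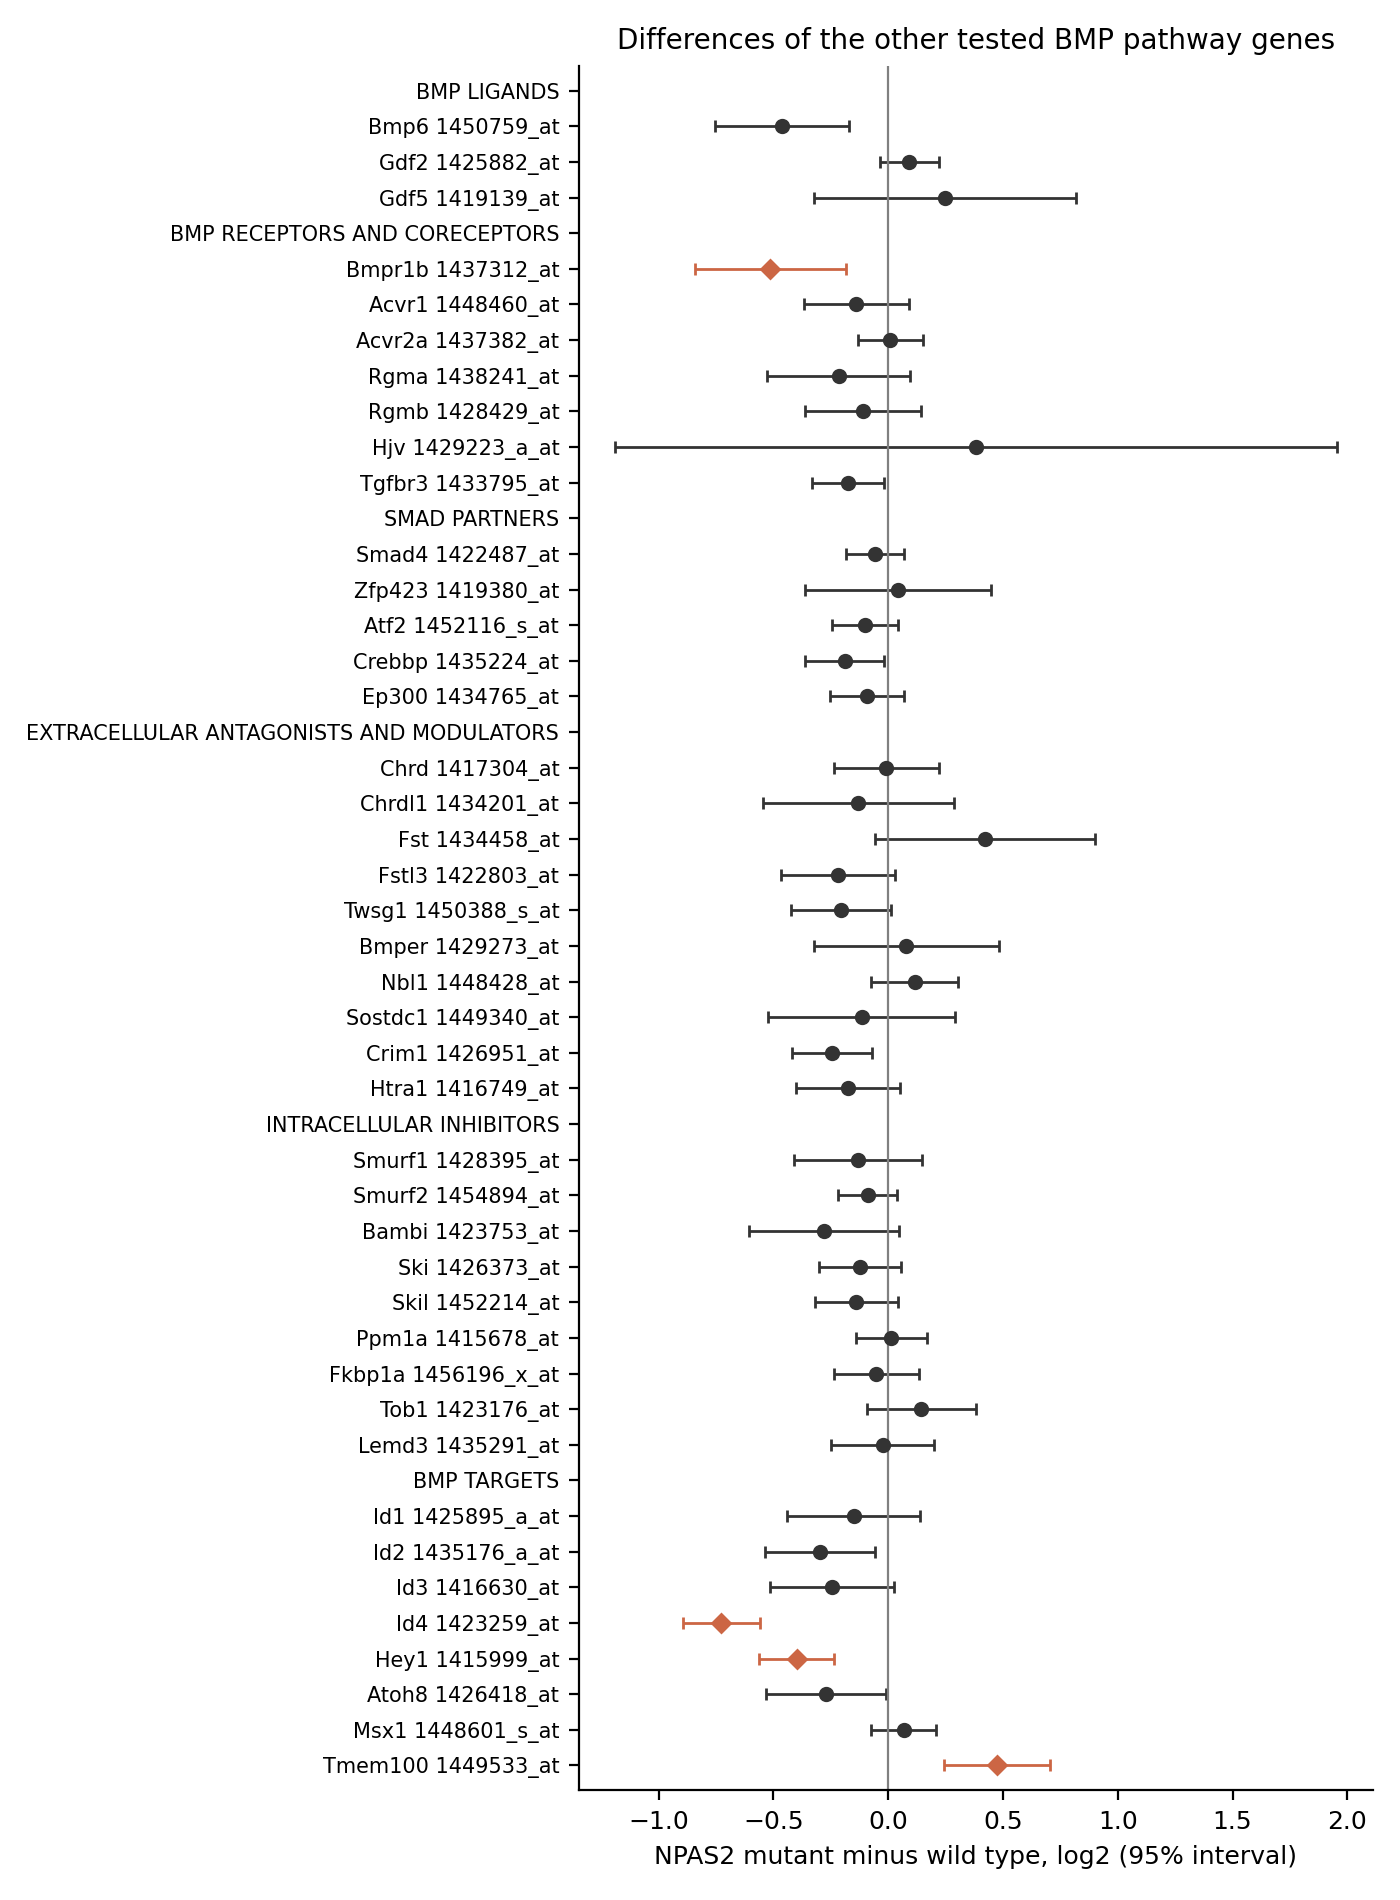
Mutant minus wild type on the log2 scale (points) with 95% intervals from limma (lines) for the 42 other tested pathway genes, grouped by role. Diamonds mark the 4 genes whose groups do not overlap: Id4 (-0.73), Bmpr1b (-0.51) and Hey1 (-0.40) are lower and Tmem100 (0.47) is higher in the mutant.

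Marker genes were used to describe the cellular make-up of the samples. In whole tissue fewer cells of a type and less RNA per cell cannot be told apart, and this holds for the markers too. The 16 endothelial markers averaged 5.91 to 6.07 in wild type and 5.94 to 6.11 in the mutant, with 8 markers higher and 8 lower. With that mean as a covariate the Smad6 difference was -0.76 ± 0.10 (SE). The 8 smooth muscle markers, 7 of them lower, had means of 10.73 to 11.04 in wild type and 10.59 to 10.91 in the mutant. Neither list mean separated the groups, and 0 markers of either list were called by limma. Single markers did not overlap between the groups: Pecam1 (-0.33) and Emcn (0.50) of endothelium, and Myh11 (-0.18) and Lmod1 (-0.26) of smooth muscle. Of all tested genes 4.21% did not overlap. A flat list mean therefore does not show that each marker was unchanged.

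The brown fat markers did separate them. Of 9 measured markers 8 had a higher mean in the mutant and 0 were called by limma. They averaged 8.14 to 8.71 in wild type and 8.93 to 9.48 in the mutant. With their mean as a covariate the Smad6 difference was larger, at -1.10 ± 0.16 (SE), the Id4 difference was -0.69 ± 0.16 (limma adjusted p = 0.449), and 0 member probe sets and 0 other pathway genes were called. That covariate does not overlap between the groups, and the standard error of Smad6 was 0.16 with it and 0.10 without. The part of brown fat in the differences of the other members was not tested beyond these values. Skeletal muscle marker means ran from 3.23 to 9.90 in wild type and from 3.27 to 11.05 in the mutant, and with that mean as a covariate the Smad6 difference was -0.77 ± 0.11 (SE) and the count of members called was 0. Adipocyte (10.15 to 10.53 and 10.11 to 10.54) and fibroblast means (10.46 to 10.91 and 10.67 to 11.04) overlapped, and so did macrophage means (6.96 to 7.23 and 7.17 to 7.66), with all 7 markers higher. Nerve and Schwann means overlapped too (4.85 to 5.68 and 5.00 to 6.10).

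**Figure D5:**
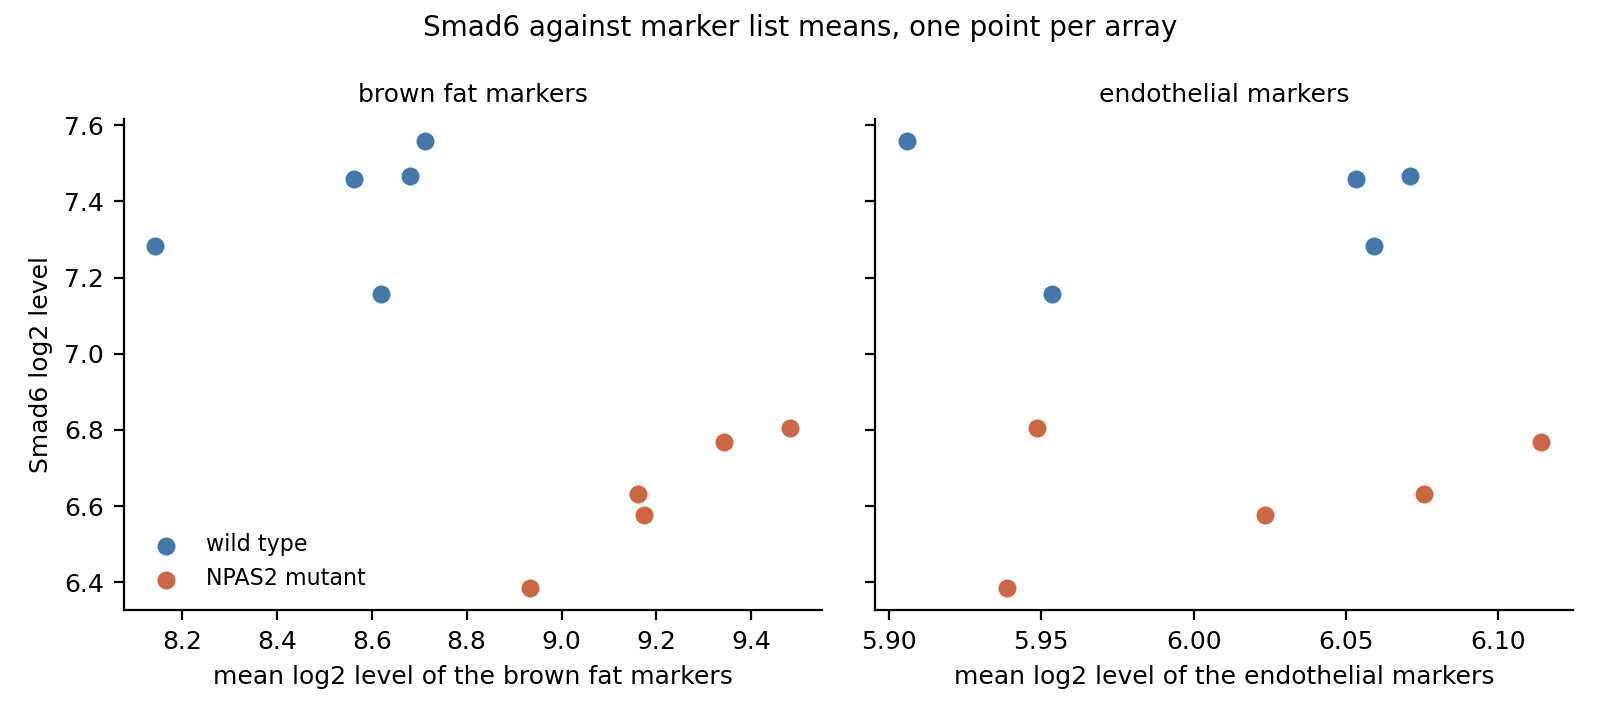
Smad6 log2 level (vertical) against the mean log2 level of the brown fat markers (left) and of the endothelial markers (right), 1 point per array. Mutant arrays lie lower for Smad6 and higher for brown fat, at 8.93 or above, while the endothelial means of the groups cover nearly the same span.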

How the data were processed

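Aortic RNA was measured on Affymetrix MOE 430V2 arrays. The authors' deposited table gives each array 1 log2 value per probe set, summarised from the probes. GCRMA and MAS5 are both named in the submitters' processing notes, and which made the table is not given in the sources used here. The log2 scale was read from the values.

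Of 45101 probe sets 64 controls were left out. Platform annotation gave 34945 of the rest 1 gene, 932 several and 9160 none. Of the 34945, 34741 had a gene identifier found in the GRCm38.p6 gene list and took its symbol, whether or not that differed. Values were used as deposited. Probe sets above their array's median on at least 5 of 10 arrays (22340) were fitted with limma 3.58.1 in R 4.3.3 (lmFit, eBayes), mutant minus wild type, two-sided, Benjamini-Hochberg over all of them, threshold 0.05. Permutation tests were two-sided and exact. SE values and 95% intervals are limma's, and SD values are over 5 arrays. The number of arrays limits the precision. The labels name no batch, and none was fitted.

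Members, gene lists and the naming rule were chosen with earlier results of these data known. The rule named all member probe sets, pathway genes that were called or had an unadjusted p under 0.05, the 2 of largest difference per list, and the 5 genes most like Smad6. A pathway gene was taken by its brightest tested probe set, and a marker by its brightest. In simulated data of 22340 independent probe sets, 61 of 100 differences of 0.5 and 97 of 100 of 1 were recovered, with 7 false among 165 calls. Alternatives covered the filter, normalisation, variance model, array weights, an ordinary one-way analysis, shared-probe suffixes, covariates, averaging of probe sets and leaving out each array.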

Additional observations from a re-analysis of the deposited data

Results flagged for a closer look

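A single array stood apart from the other 4 of its group for 3 of the 48 member probe set groups examined, judged by its gap to the nearest array over the group's range, with a critical value of 0.71. Chance gives about 1 in 20. For Bmp4 wild type F16 was the highest, at 7.73 beside 7.59 (ratio 0.832), within a narrow range. For Smad5 on the dim 1451873_a_at wild type F15 was the highest, at 3.64 beside 3.41 (ratio 0.788). For Bmpr1a on 1445413_at, too dim to be tested, mutant F13 was the highest, at 2.67 beside 2.13 (ratio 0.976). None of the Smad6 or Smad7 readings was marked in this way.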

How the results depend on the processing

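The Smad6 difference lay between -1.10 and -0.69 under the settings that can move it (scaling, array weights, covariates and left-out arrays), and moved by more than 1 SD under the brown fat covariate alone (-1.10). Filters, variance models and averaging of probe sets cannot move the difference of a single probe set. Leaving out an array in turn gave -0.81 to -0.69. The count of member probe sets called, 1, was 0 without a filter on dim probe sets, with the ordinary one-way analysis and with the brown fat or skeletal muscle covariate, and ran from 0 to 1 with an array left out. The count of other pathway genes called, 1, was 0 with the brown fat covariate and 2 (Id4 and Hey1) with the probe sets of a gene averaged, and ran from 1 to 2 with an array left out. Some differences that had not passed the test changed sign: with the brown fat covariate Bmpr1a (0.13), Bmpr2 (0.060), Bambi (0.33), Gdf5 (-0.24) and Hjv (-1.30), with the skeletal muscle covariate Eng (-0.024) and Hjv (-0.22), and with an array left out Eng (-0.048 to 0.049) and Hjv (-0.21 to 0.82). The cause was not tested. The correlation of Smad6 with Smad7 within groups lay between 0.78 and 0.94 under 13 alternatives chosen after the data were seen. Over all probe sets 21 calls were higher and 27 lower, which was 34 and 18 with median centring and 32 and 29 with quantile normalisation. No paired analysis was possible because the groups share no replicate number. Dim probe sets near the lower end of the range limit what could be seen for 17 pathway genes.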

Other observations

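Hjv, the haemojuvelin co-receptor of BMP6, which is best known from skeletal muscle and liver, varied between single arrays more than any other pathway gene tested. It read 3.87, 4.02, 3.77, 5.97 and 3.45 in wild type and 6.98, 3.06, 3.42, 4.76 and 4.78 in the mutant. The arrays with the highest Hjv level, mutant F12 and wild type F16, also had the highest skeletal muscle marker mean of their groups, at 11.05 and 9.90. The difference between the groups was 0.38 ± 0.71 (SE, limma adjusted p = 0.815), and -0.22 ± 0.34 with the skeletal muscle mean as a covariate. The part of muscle in the Hjv level was not tested further.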
